A study of Homo sapiens with 2 samples.

Results

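Binding of the transcription factor IRF1 was examined at genes of the proteasome, with attention to 8 of them: the immunoproteasome subunit genes PSMB8, PSMB9 and PSMB10, the activator genes PSME1 and PSME2, the constitutive subunit genes PSMB1 and PSMB2, and the assembly chaperone gene PSMG4. The genes were selected by name, and every IRF1 summit (the single base given as the top of a binding peak) for which the authors name one of them as the nearest gene was taken, whatever its distance. This gave 10 summits of 1986 in the list. IRF1-bound DNA was enriched with an antibody and sequenced (ChIP-seq) from NB4, a human cell line of acute promyelocytic leukemia with the fusion protein PML-RARA. Of the 2 libraries, 1 was from cells given all-trans retinoic acid (ATRA), which makes these leukemia cells differentiate, for 4 hours, and 1 was from control cells, which per the labels' protocols received the solvent DMSO. The list used here carries the name of the ATRA library. The control library was not analysed here, so no change under ATRA is reported, and with 1 library there is no spread between replicates.

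The proteasome is the barrel-shaped protease that degrades ubiquitin-tagged proteins. Its core, the 20S particle, is built of alpha and beta rings, and the 19S cap unfolds the substrates. In cells exposed to interferon, the catalytic beta subunits PSMB6, PSMB7 and PSMB5 are replaced in newly built particles by PSMB9, PSMB10 and PSMB8, which gives the immunoproteasome. PSME1 and PSME2 form the PA28 cap, which opens the core and favours the release of peptides for MHC class I presentation. PSMG4 belongs to a set of chaperones that assemble the alpha ring. IRF1 is a factor of the interferon response that binds repeats of the letters GAAA.

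The sequences at the start sites show what the strongest of these genes have in common, and are printed for that reason. Each line gives 80 bases from RefSeq on build GRCh38.p14, 5′ to 3′ on the gene's strand, from 60 bases before the transcription start site (TSS) to 20 after it. Capitals mark GAAANNGAAA, the core of the interferon-stimulated response element, or its reverse complement TTTCNNTTTC. The intervals are chr14:24136134-24136213 for PSME1, chr14:24146591-24146670 for PSME2, chr6:32844028-32844107 for PSMB8, chr16:67936831-67936910 for PSMB10 and chr6:3258887-3258966 for PSMG4. PSME1 and PSMG4 are on the forward strand and the other three on the reverse strand.
PSME1: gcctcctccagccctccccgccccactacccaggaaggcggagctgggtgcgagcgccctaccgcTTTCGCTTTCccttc
PSME2: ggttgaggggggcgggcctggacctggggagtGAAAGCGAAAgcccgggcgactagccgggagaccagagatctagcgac
PSMB8: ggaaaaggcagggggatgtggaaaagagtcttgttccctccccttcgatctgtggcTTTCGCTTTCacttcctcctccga
PSMB10: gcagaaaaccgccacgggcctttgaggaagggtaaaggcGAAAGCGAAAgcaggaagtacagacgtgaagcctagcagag
PSMG4: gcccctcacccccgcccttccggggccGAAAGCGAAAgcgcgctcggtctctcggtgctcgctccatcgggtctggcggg
All 5 start sites held the same 10 letters, GAAAGCGAAA, on the gene's strand in PSME2, PSMB10 and PSMG4 and on the opposite strand in PSME1 and PSMB8. On the strand that reads GAAA, the next 2 bases were GC in all 5. How often GC follows these letters in other promoters is given below.

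PSMB9 shares its promoter with TAP1, a subunit of the peptide transporter, which is read in the opposite direction. The stretch between both start sites is shown on the TAP1 strand, at chr6:32853791-32853870, because the promoter window of PSMB9 itself held no match. PSMB5, the constitutive counterpart of PSMB8, is shown for contrast at chr14:23035201-23035280 on the reverse strand, from 60 bases before the start site to 20 after it. It had no summit.
TAP1: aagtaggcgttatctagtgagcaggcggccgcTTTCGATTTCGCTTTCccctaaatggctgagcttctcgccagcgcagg
PSMB5: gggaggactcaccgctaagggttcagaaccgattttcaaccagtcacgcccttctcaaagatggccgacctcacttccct
The TAP1 stretch held 3 copies of GAAA in a row on the opposite strand, each 2 bases from the next, and the PSMB5 stretch held no match.

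All 5 interferon-inducible genes, PSMB8, PSMB9, PSMB10, PSME1 and PSME2, had a summit within 1 kb of a TSS. For comparison, 3.36% of all 19974 protein-coding genes had a summit assigned within 10 kb, and 2.03% had one within 1 kb. The exact (Clopper-Pearson) 95% interval for 5 of 5 genes is 47.8 to 100%, which covers counting error only. The best scores of these 5 genes ranged from 115 to 321 with a median of 147, against a median of 28.8 over the 672 protein-coding genes with a summit within 10 kb. The peak score was deposited by the authors with no statement of its scale, and serves here to rank summits within the list. The lower quartile of all scores was 17.7 and the upper quartile 44.0.

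**Figure D1:**
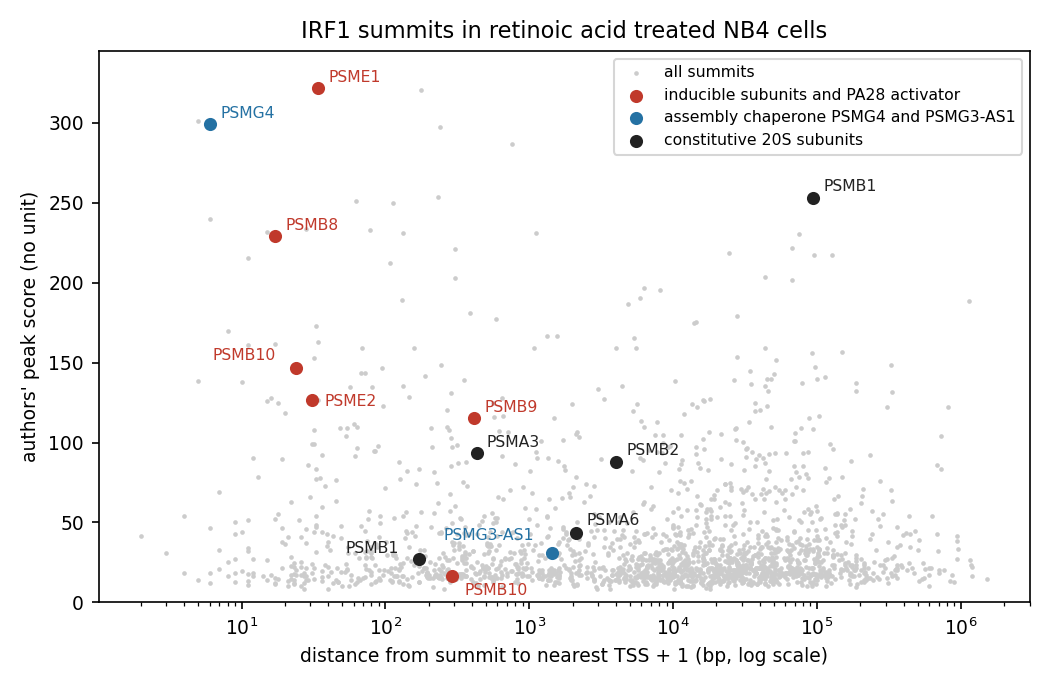
Authors' peak score (no unit, vertical) of each IRF1 summit against its distance to the nearest TSS (bp, logarithmic, 1 bp added), with the summits of proteasome genes in colour and all 1986 summits in grey. PSME1, PSMG4, PSMB8, PSMB10 and PSME2 lie within 33 bp of a TSS at scores from 127 to 321, whereas the high PSMB1 summit lies 93.7 kb away.

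PSME1, which encodes the alpha subunit of PA28, had the highest score of the list, 321, at chromosome 14 position 24136191. The authors' annotation places it in the promoter, 33 bp downstream of a TSS, and by the RefSeq start it lies 3 bases upstream of the gene. PSME2, which encodes the beta subunit, had a score of 127 (rank 98) at position 24146616, 30 bp from the authors' TSS. Both genes of the PA28 cap were thus bound at their start, in separate peaks 10425 bp apart. The neighbour of PSME2, read in the other direction, is RNF31, the catalytic subunit of the linear ubiquitin chain ligase. The authors' annotation names an RNF31 transcript for this summit. It lay 6 bases from the RefSeq start of PSME2 and 259 bases from the nearer start of RNF31. IRF9, a partner of STAT factors in the interferon response, has a span that begins 14.6 kb away, and within 50 kb of the PSME2 summit there was no other summit than that of PSME1.

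PSMB8, the chymotrypsin-like subunit of the immunoproteasome, had a score of 229 (rank 19) at chromosome 6 position 32844055, 16 bp upstream of its TSS. RefSeq gives PSMB8 a pair of start sites, 632 bp apart, and the summit lay 8 bases from the downstream one. The span of the non-coding gene PSMB8-AS1 lies 31 bp from the summit, and its promoter window held GAAAGCGAAA and the same summit. PSMB9 had a score of 115 (rank 124) at position 32854571, 410 bp downstream of its TSS. PSMB9 takes the place of PSMB6 in the immunoproteasome. It was the only inducible gene whose best summit was not within 100 bp of a TSS. The authors' annotation names a TAP1 transcript for this summit, but it lies inside the RefSeq span of PSMB9.

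These genes stand in a block with the transporter genes TAP2 and TAP1, which the authors list with scores of 301 and 231. The 4 summits of the block lay within 15.8 kb. The TAP1 summit at position 32853840 was in the 488 bp between the start sites of TAP1 and PSMB9, 136 bases from the first and 352 from the second. It was thus slightly nearer to the RefSeq start of PSMB9 than the summit that carries the name of PSMB9, which lay 379 bases inside the gene. The summits of TAP1 and PSMB9 were 731 bp apart, and per the labels' protocols libraries were selected for 250 to 450 bp. The treatment of reads that map to several places in this region is not given in the sources used here.

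**Figure D2:**
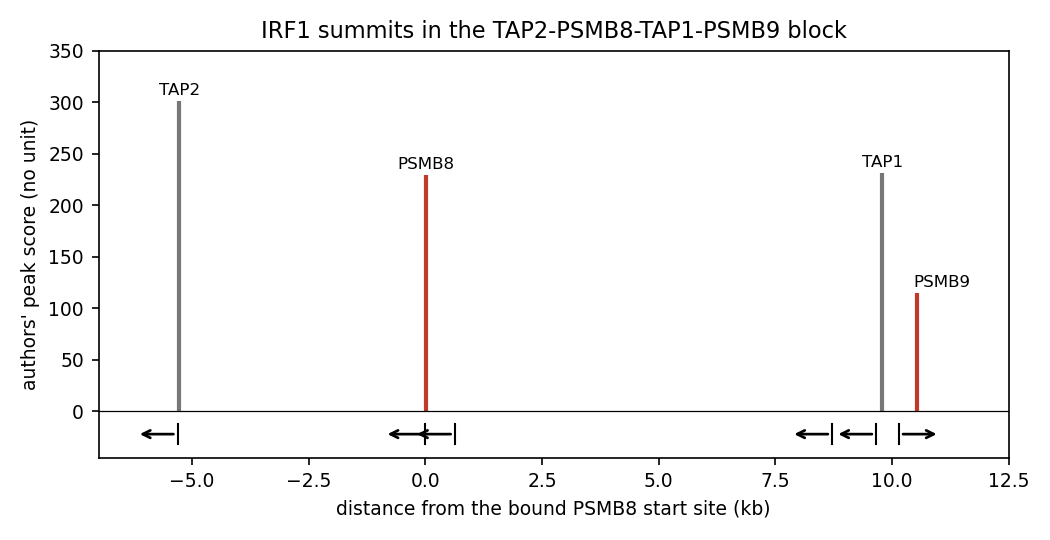
Authors' peak score (no unit) of the 4 IRF1 summits in the block, by distance from the PSMB8 start site that carries the summit (kb), with PSMB8 and PSMB9 in red and TAP2 and TAP1 in grey. Arrows below give the RefSeq start sites and their direction. The TAP1 summit stands between the TAP1 and PSMB9 start sites and the PSMB9 summit inside PSMB9.

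PSMB10, the trypsin-like subunit of the immunoproteasome and the one that lies apart from the block, had 2 summits. The higher, with a score of 147 (rank 63), was at chromosome 16 position 67936854, 23 bp from the authors' TSS and 4 bases from the RefSeq start. The lower, with a score of 16.4 (rank 1598), was 268 bp away at position 67936586 in intron 1 of 7. It is among the weaker summits of the list, with a score above 19.5% of them. No other summit lay within 50 kb.

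PSMG4 was the one assembly chaperone gene with a summit of its own. The summit at chromosome 6 position 3258933, 5 bp from the authors' TSS, had a score of 299 (rank 4), the second highest among proteasome genes. The RefSeq span of PSMG4 runs from 3254404 to 3268049. The summit and the start site printed above, at 3258947, thus lie inside the span and not at its first base. Of the 9 listed chaperone genes (PSMG1 to PSMG4, POMP, PAAF1, PSMD5, PSMD9 and PSMD10), PSMG4 alone had a summit within 10 kb as nearest gene (11.1%, exact 95% interval 0.281 to 48.2%). The share of 3.36% over all protein-coding genes lies within this interval. PSMG3, its fellow chaperone gene, was the nearest gene of none. A summit with a score of 31.2 at chromosome 7 position 1571510 belonged to the antisense gene PSMG3-AS1 and lay 1.48 kb from the PSMG3 span, in a MER51B repeat, which is the terminal repeat of an endogenous retrovirus. The nearest other summit to that of PSMG4 was 101.7 kb away.

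Summits were also found at some constitutive subunit genes. Of 34 genes of the constitutive core and the 19S cap, 4 had a summit within 10 kb of a TSS (11.8%, exact 95% interval 3.30 to 27.5%), PSMB1, PSMB2, PSMA3 and PSMA6. The background share of 3.36% lies within this interval, at its lower end. No test was run between the 2 kinds of genes, because both were chosen with results of this list known. All 4 belong to the 15 genes of the constitutive core (26.7%, exact 95% interval 7.79 to 55.1%). The background share of 3.36% lies below that interval, but the core was set apart with results of this list known. Within 1 kb, 2 of the 15 had a summit, against 2.03% of all protein-coding genes, and no interval was computed there. None of the 19 genes of the 19S cap had a summit as nearest gene, within 10 kb or at any distance. The exact 95% interval allows a share of up to 17.6%. The background share of 3.36% within 10 kb lies inside it, so the cap is not set apart from all genes.

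PSMA3, an alpha ring subunit, had the highest of these scores, 93.1 (rank 189), at chromosome 14 position 58245234, 429 bp downstream of its TSS in an intron. PSMB2, a structural beta subunit, had a score of 88.0 (rank 212) at chromosome 1 position 35637527, in intron 1 of 5 and 4024 bp downstream of its TSS. PSMA6, another alpha ring subunit, had 43.4 (rank 509) at chromosome 14 position 35294420, in intron 1 of 6 and 2103 bp from its TSS. PSMB1, also a beta subunit, had a score of 26.9 (rank 919) at chromosome 6 position 170553160, in exon 1 of 6 and 169 bp from its TSS. All 4 thus lay downstream of the TSS by 169 bp or more, whereas 4 of the 5 inducible genes had their summit within 33 bp of it. The scores of the 4 constitutive genes, 26.9 to 93.1, were, within 10 kb of the TSS, all below those of the 5 inducible genes, the lowest of which was 115. The summits of PSMB2, PSMA3 and PSMA6 stood alone, and the nearest other summit to any of these was 420.7 kb away, from that of PSMA6.

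The name of PSMB1 also stands on a far stronger summit. At chromosome 6 position 170459656 a summit had a score of 253 (rank 9), 93.7 kb downstream of the PSMB1 TSS in sequence that the authors class as intergenic. The RefSeq table has an uncharacterised protein-coding locus, LOC124901235, over this position, and the nearest gene with a full name is FAM120B, whose span ends 52.6 kb away. PSMB1 itself starts next to TBP, the TATA-binding protein gene, whose span begins 1.21 kb from the weaker summit. The strong summit therefore carries the PSMB1 name by nearest TSS only, and these data do not tie it to a gene.

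**Figure D3:**
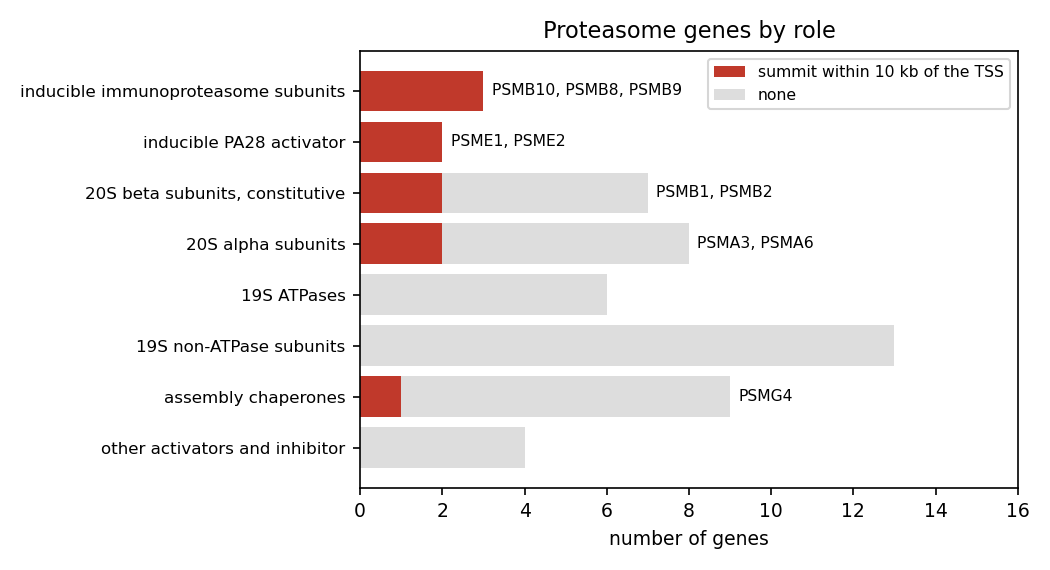
Number of proteasome genes by role, split into those that are the nearest gene of an IRF1 summit within 10 kb of the TSS (red, named at the right) and those that are not (grey). All 5 inducible genes are red, against 4 of 15 constitutive core genes and 0 of 19 genes of the 19S cap. Over all protein-coding genes the share was 3.36%.

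Over all protein-coding genes with a symbol that starts with PSM, 10 of 50 had a summit within 10 kb (20%, exact 95% interval 10.0 to 33.7%). Without the 5 inducible genes, 5 of 45 remained (11.1%, 3.71 to 24.1%). The share over all protein-coding genes was 3.36%, below both intervals. Within 1 kb, 8 of the 50 and 3 of the 45 had a summit, against 2.03% of all protein-coding genes. Intervals were not computed at 1 kb. The genes were chosen with results of this list known, and no test was run. The other activators, PSME3 and PSME4, the inhibitor PSMF1, the PSME3 partner PSME3IP1 and the thymus-specific subunit PSMB11 had none. The regulators of proteasome gene expression NFE2L1, NFE2L2, DDI2 and NGLY1, through which cells restore proteasome levels, had none either. For the 47 of 57 listed genes without a summit within 10 kb, the nearest summit of any gene was a median of 236 kb from the gene's span. For PSMG3 and PSMA1 it lay within 10 kb. The summit near PSMA1 (44.1), an alpha ring subunit, belonged to COPB1 and was 4.33 kb from the span.

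The GAAA repeats printed above were then placed against the summits. Promoter windows of 300 bases (250 before the TSS and 50 after it) were held for 51 of the 57 listed genes, and PSMB1, PSMB6 and PSMB7 were not among them. GAAANNGAAA was searched on both strands and was found in 3.57% of all 35116 windows. It was present in a window of 4.16% of the 15813 protein-coding genes that have a window. Of the 5 inducible genes 4 had it, and so did PSMG4. Of the 29 constitutive subunit genes with a window, 2 had it, PSMA4 and PSMB4, and neither had a summit. The summits of PSMA3, PSMB2, PSMA6 and PSMB9 lay outside the windows of these genes, and PSMB1 had no window. The repeat was therefore not searched at those summits, and whether it is present there is not known. None of the 18 genes of the 19S cap with a window had it. NGLY1 also held a match and had no summit.

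The exact letters GAAAGCGAAA were rarer. They stood in 35 of the 35116 windows, which is 0.0997%, and in a window of 0.177% of protein-coding genes that have a window. The letters were read from PSME1, PSME2, PSMB8, PSMB10 and PSMG4, whose summits were already known, so their presence there is a description. Some windows overlap, and the 35 windows held 29 distinct copies. Without the 5 copies from which the letters were read, 13 of the other 24 lay in a window with a summit (54.2%, exact 95% interval 32.8 to 74.4%), TAP1 and TAP2 among them. For GAAANNGAAA of any spelling, without the same 5, it was 121 of 1256 copies (9.63%). The window of RNF31 held the same copy as PSME2 at its far edge, but the summit fell outside that window. The 2 letters GC that follow were present in PSME1, PSME2, PSMB8, PSMB10, PSMG4 and TAP2 but not in TAP1, where another GAAA follows. These 2 letters were also read from the 5 genes. Over all 29 distinct copies, 12 had GC next, and without the same 5 it was 7 of 24.

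Summits lay next to the repeat, and on the same side of it. The distance from the repeat to the summit was 4 bp in PSMB8, 8 bp in PSME1, 8 bp in PSMB10, 10 bp in PSMG4 and 13 bp in PSME2. It was 2 bp in TAP1 and 14 bp in TAP2. In all 7 promoters the summit was on the 3′ side of the repeat, read along the strand that spells GAAA. The same held for most other genes. Of 91 summits of other genes in a window with a match, 72 were on the 3′ side (79.1%), 11 on the 5′ side and 8 inside the repeat, with a median distance of 11 bp. This side was therefore common across the list.

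**Figure D4:**
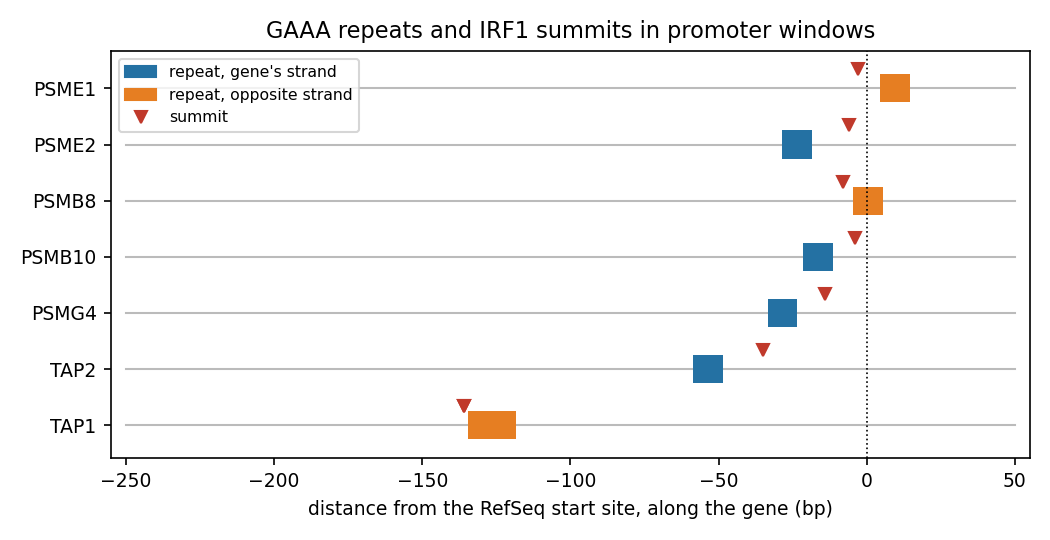
Position of GAAANNGAAA (bars, blue on the gene's strand and orange on the opposite strand) and of the IRF1 summit (triangles) in the promoter windows of 7 genes, as distance from the RefSeq start site along the gene (bp). Each summit lies 2 to 14 bp from a repeat, to the right of blue bars and to the left of orange ones.

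Other motifs were less regular. GGAANNGAAA, the joint site of ETS and IRF factors, was found in 2.82% of all windows. Among the inducible genes it stood in PSMB8 alone, where it overlaps the GAAA repeat. In PSMB8, again alone among these 5 genes, the motif of STAT factors, TTCNNNGAA, was also present, 49 bp from the summit, and it was found in 7.66% of all windows. TGACNNNGC, the antioxidant response element through which NFE2L1 and NFE2L2 act, is known from genes of the constitutive proteasome. It was present in 7 of the 18 genes of the 19S cap with a window (38.9%). In the constitutive core it was present in 2 of the 11 genes with a window (18.2%). Over both, 9 of 29 genes had it (31.0%). Of protein-coding genes that have a window, 17.9% had it. Among the 5 inducible genes PSME1, PSME2 and PSMB9 had it, at 75 bp and 161 bp from the summits of PSME1 and PSME2. A match of letters is a description and does not show that the factor binds.

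The inducible genes were ranked among the 186 protein-coding genes with a summit within 100 bp of a TSS, to name those most like them in score. PSME1 was at place 1 and PSMG4 at place 3, with TAP2 between them. PSMB8 was at place 8, between the interleukin 15 receptor gene IL15RA (232) and OGFR (216). PSMB10 was at place 16, between LSM6 (153) and TAPBPL (147), a peptide editor of MHC class I molecules, from which it differed by 0.0200. PSME2 was at place 24, between HELZ2 (128) and WBP4 (126). With 1 library, neighbours in this order cannot be told apart by replicate error.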

How the data were processed

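IRF1 ChIP-seq in NB4 cells gave 2 libraries, 1 per group, and 1 deposited list of summits, named for the ATRA library. Per the submitters' processing notes Bowtie2 2.2.9, MACS 1.4.2 and hg38 were used. HOMER annotated the summits against hg38, per the file headers. The deposited peak score is the authors' value. Not given in the sources used here are its scale, the read depth, and the threshold and background of peak calling. Were the control cells that background, summits would mark enrichment over them, and equal binding in both would leave no summit.

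Nearest genes were matched by Entrez identifier to RefSeq GRCh38.p14 (1977 of 1986 summits), and positions are 1-based. A gene was counted if the authors assigned it a summit at most 10 kb from its TSS. Distances to RefSeq starts were computed from the promoter windows. Motifs were searched as exact letters on both strands. No test was run: counts stand beside the share over all genes, with exact 95% intervals. Genes, lists and motifs were chosen with earlier results of these data known, and the 10 shared letters, the count of their distinct copies and the side of the repeat after seeing the data. The rule for named genes takes all summits of PSM and listed genes, summits within 50 kb of the inducible ones, and their neighbours in score. The motif search and the merging of summits were tested on simulated data. Alternatives were TSS distances of 1 kb and 5 kb, any distance, extended gene spans, scores at or above the median, merged summits and other forms of the motif. Python 3.11.15, pandas 2.3.3, NumPy 2.4.6, SciPy 1.17.1 and matplotlib 3.10.9 were used.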

Additional observations from a re-analysis of the deposited data

How the results depend on the processing

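The share of inducible genes with a summit was 100% under all 6 alternatives. This was fixed in advance and does not show robustness. Each of these genes had a summit at most 410 bp from a TSS with a score of at least 115. The share of constitutive subunits was 5.88% within 1 kb, 14.7% with gene spans extended by 10 kb, where PSMA1 was added, and 11.8% under the other 4. The share over all protein-coding genes was computed only within 10 kb (3.36%) and within 1 kb (2.03%). The shares at the other settings therefore have no comparison. The median best score of the inducible genes was 147, and 301 with extended spans, because summits of neighbouring genes such as TAP2 then count for PSMB8. The share of all promoter windows with the GAAA repeat was 3.57%. It was 33.0% with 1 mismatch allowed, 0.154% for 3 copies in a row, and 2.30% with 150 bases before the TSS. The 4 inducible genes and PSMG4 held a match in the first and the last of these, and none of them held 3 copies in their own windows. No paired analysis was possible because there was 1 library in each group, and no replicate could be left out. Depth per summit is unknown, so binding at genes without a summit may have gone undetected.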

Other observations

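The other genes whose promoter window held both GAAAGCGAAA and a summit came from varied functions, and were named after their values were seen. SHFL, an interferon-induced antiviral gene, had a score of 320.5 and the non-coding gene CARINH 250.0. EARS2, a mitochondrial tRNA synthetase gene, and UBFD1 shared a summit of 98.8. FAM111A, a protease gene known for virus restriction, had 96.8, the fatty acid hydroxylase gene CYP4V2 77.8, the deubiquitinase gene OTUD4 72.4, PARP14 46.5, the adaptor gene MYD88 26.2, DDO 18.5 and ATXN7L3 15.0. The scores of windows with these same 10 letters thus ran from 15.0 to 321.

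A total of 12 windows held the letters and no summit. They included those of IL12A, TNFRSF1B, SENP1, GRWD1 and ARAP1. The window of RNF31 was also among the 12, but its copy is the PSME2 copy, which lies 13 bp from the PSME2 summit. What differs between windows with and without a summit was not tested.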
